A study of Mus musculus with 6 samples.

Results

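The RNA exosome is the main 3′ to 5′ RNA-degrading complex of eukaryotic cells. Its subunit genes in the mouse are Exosc1 to Exosc10, and the members described here are the array probes whose platform gene symbol is one of these 10 names. The platform carries 17 such probes for 10 of 10 genes, among 45281 probes and 19057 genes with a single symbol. A detection p under 0.05 on 3 or more of the 6 arrays was reached by 12 of the 17 probes, which cover 8 of the 10 genes. The series concerns N-Me, an enhancer of the proto-oncogene Myc that the receptor-derived transcription factor NOTCH1 binds. Illumina bead arrays, 1 per sample, measured biotin-labelled total RNA from C57 BL6 mice. The KO tamoxifen group held 3 samples of conditional N-Me knockout mice that had received tamoxifen at 3 mg/kg in corn oil by intraperitoneal injection. The WT vehicle group held 3 samples of N-Me wild-type mice that had received corn oil alone, and animals of both groups were processed at 40 h. Genotype and tamoxifen changed together, so their effects cannot be told apart. The sources used here name no tissue, no age of the mice and no promoter that drives the recombinase. The titles call the samples biological replicates but do not name animals, so p-values measure the spread between these samples.

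The core of the complex is a barrel of 9 proteins. A ring of 6 subunits related to the bacterial nuclease RNase PH (Exosc4, Exosc5, Exosc6, Exosc7, Exosc8 and Exosc9) is covered by a cap of 3 RNA-binding subunits (Exosc1, Exosc2 and Exosc3). In mammals the ring itself has lost its catalytic activity, and RNA is degraded by the associated nucleases DIS3 and EXOSC10. In the nucleolus the complex trims the 3′ ends of ribosomal RNA precursors, in the nucleoplasm it removes aberrant and short-lived transcripts, and in the cytoplasm it takes part in mRNA turnover. Ribosome production is a process that MYC is known to promote in lymphocytes.

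Between 18215 and 19486 probes were detected per array, and the median raw signal was 121.8 to 132.4. Myc, the gene that N-Me regulates, read 7.42, 6.95 and 7.11 on the KO tamoxifen arrays, against 8.95, 8.75 and 9.04 on the WT vehicle arrays, on the normalized log2 scale used for all levels below. Its log2 fold change was -1.75 ± 0.16 (SE, limma, adjusted p = 0.000406), and -1.25 with no background correction. The array measures the transcript and not the enhancer. Across the 10209 genes tested, 17.1% were lower and 19.7% higher in KO tamoxifen at a Benjamini-Hochberg adjusted p under 0.05 by limma. Lists of cell type markers moved as well. Of 4 thymocyte markers, 3 fell (Rag1, Ptcra and Dntt) and Cd1d1 rose, and their mean level was 7.28 to 7.60 on KO arrays and 8.66 to 8.93 on WT arrays. Of 7 T lineage markers, 0 passed by limma, also at an unadjusted p under 0.05, and their mean level was 12.07 to 12.18 on KO arrays and 12.05 to 12.11 on WT arrays. All 4 myeloid markers tested rose (9.85 to 10.38 on KO arrays, 9.02 to 9.28 on WT arrays), as did 2 of 3 erythroid markers (13.51 to 13.83 on KO arrays, 12.88 to 13.20 on WT arrays), 2 of 4 of stroma and endothelium, 1 of 2 B cell markers and 1 of 3 NK markers. Pax5, Ncr1, Itgam, Epcam, Krt5, Cd8a and Rag2 were not detected on any array. Among 5 proliferation genes, Mcm6 alone passed, as lower. The part of a changed cell mixture in the results below was not tested. In RNA from a mixture, fewer cells of a type and less RNA per cell cannot be told apart.

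Of the 8 RNA exosome genes tested, 5 core genes fell in the KO tamoxifen group (Exosc1, Exosc2, Exosc4, Exosc5 and Exosc6), 0 rose and 3 did not pass (the core genes Exosc7 and Exosc8 and the nuclease gene Exosc10), against 17.1% lower and 19.7% higher among all tested genes. All 8 fold changes were negative, with a median log2 fold change of -0.59, while the median over all tested genes was 0.0011. At an adjusted p under 0.01, 4 of the 8 were lower (Exosc1, Exosc2, Exosc4 and Exosc6), against 8.46% of all tested genes. The values ran from -1.07 for Exosc6 to -0.12 for Exosc7. On each array, the mean deviation of the 8 genes from their WT means was -0.57, -0.59 and -0.61 in KO replicates 1, 2 and 3, and 0.04, -0.00348 and -0.03 in WT replicates 1, 2 and 3. The KO arrays were thus alike in this mean, although single genes differed more. All KO arrays were below all WT arrays for 7 of the 8 genes, against 24.4% of all tested genes. With 3 arrays against 3, the exact 2-sided permutation test gave p = 0.1 for each of these 7 genes and cannot go lower.

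Because several members were lower together, their promoters are shown for the gene with the largest fall (Exosc6), the smallest p (Exosc2), the only member promoter with the MYC-MAX E-box (Exosc5) and the smallest change (Exosc7). Each runs 5′ to 3′ from 250 bases before to 50 bases after the transcription start in RefSeq (build GRCm38.p6). Capitals mark matches on either strand to the E-box CACGTG that MYC-MAX dimers bind, the ETS core CGGAAG and the NRF1 core GCATGCGC.
Exosc6 (chr8:111056089-111056388, plus strand): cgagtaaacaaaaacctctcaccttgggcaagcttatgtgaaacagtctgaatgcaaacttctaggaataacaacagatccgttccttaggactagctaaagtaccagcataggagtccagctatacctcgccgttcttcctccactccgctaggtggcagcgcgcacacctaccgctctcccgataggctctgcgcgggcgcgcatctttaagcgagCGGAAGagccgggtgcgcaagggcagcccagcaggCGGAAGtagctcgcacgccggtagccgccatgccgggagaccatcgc
Exosc2 (chr2:31670465-31670764, plus strand): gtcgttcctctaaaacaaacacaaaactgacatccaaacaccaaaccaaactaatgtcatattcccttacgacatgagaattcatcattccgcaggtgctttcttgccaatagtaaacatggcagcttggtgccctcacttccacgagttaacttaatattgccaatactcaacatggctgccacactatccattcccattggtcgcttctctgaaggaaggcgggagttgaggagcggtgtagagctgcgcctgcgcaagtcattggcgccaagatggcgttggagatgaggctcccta
Exosc5 (chr7:25658903-25659202, plus strand): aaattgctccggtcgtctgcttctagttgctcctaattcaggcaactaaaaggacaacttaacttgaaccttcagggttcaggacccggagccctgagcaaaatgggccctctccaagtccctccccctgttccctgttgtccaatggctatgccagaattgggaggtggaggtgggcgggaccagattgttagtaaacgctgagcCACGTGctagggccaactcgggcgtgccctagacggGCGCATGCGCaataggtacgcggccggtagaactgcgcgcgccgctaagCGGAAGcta
Exosc7 (chr9:123112981-123113280, plus strand): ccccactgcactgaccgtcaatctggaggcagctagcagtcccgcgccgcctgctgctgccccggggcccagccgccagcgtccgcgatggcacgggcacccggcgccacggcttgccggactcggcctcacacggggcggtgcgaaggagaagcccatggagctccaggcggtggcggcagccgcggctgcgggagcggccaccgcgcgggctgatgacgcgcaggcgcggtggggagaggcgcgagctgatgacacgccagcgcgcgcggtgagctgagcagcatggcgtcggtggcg
The RefSeq table held 9 promoters for 8 of the members, with 2 starts for Exosc10, and none was used for Exosc4 and Exosc9. The E-box occurred in 1 of the 9 member promoters, that of Exosc5, where it begins 44 bases upstream of the start, and in 7.15% of all 32851 promoters in the table. The ETS core occurred in 5 of the 9, in Exosc3, Exosc5, Exosc6, Exosc8 and the downstream start of Exosc10, and in 16.9% of all promoters. The NRF1 core occurred in 2 of the 9, in Exosc5 and the upstream start of Exosc10, and in 2.71% of all promoters. The palindrome in Exosc5 gives 2 overlapping NRF1 matches, and no other matches in the member promoters overlap. The promoters of Exosc1, Exosc2 and Exosc7 held none of the 3 motifs in this window. The GC content of the 9 member promoters was 48.0 to 75.7%, and the median over all promoters was 52.7%. The part of base composition in the motif shares was not tested. The motifs were chosen after the promoters had been read, and a match is a description of letters and not a bound site.

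The cap subunits that could be measured both fell. Exosc2 (probe ILMN_2805829), which carries RNA-binding domains at the entry of the barrel, read 10.95, 11.06 and 11.08 on KO arrays and 11.94, 11.88 and 11.87 on WT arrays. The groups lay far apart relative to their spread (SD 0.07 in KO and 0.03 in WT, n = 3 each). Its log2 fold change was -0.87 ± 0.11 (SE, limma, adjusted p = 0.00131), so that KO signal was 54.6% of WT signal (95% interval 45.6 to 65.5%). A further, dimmer Exosc2 probe gave -0.73 ± 0.14 in the fit of all kept probes (limma, adjusted p = 0.00555). Exosc1 (ILMN_1224534), the cap subunit known as Csl4 in yeast, read 11.29, 10.96 and 10.96 on KO arrays and 11.83, 11.86 and 11.86 on WT arrays. KO replicate 1 was the highest of the KO arrays but still below every WT array. The log2 fold change of Exosc1 was -0.78 ± 0.13 (limma, adjusted p = 0.00323), or 58.3% of WT (95% interval 47.2 to 72.02%).

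Exosc3, the remaining cap subunit, was at or near background on these arrays and was not tested. The brightest of its 3 probes had raw signals of 118.6, 121.3 and 127.6 on KO arrays and 141.9, 139.7 and 134.1 on WT arrays. It was detected on 0 KO arrays and on 1 WT array, with detection p of 0.0438 in WT replicate 1. The groups did not overlap, but each lay close to background, so no fold is given here. With no filter on dim probes, Exosc3 passed as lower (limma, adjusted p = 0.0235) and Exosc9 did not (0.608). Both values rest on signals at or near background, so neither is read as a result about the transcript. A second probe was likewise detected in WT replicate 1 alone and the third on no array.

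Among the ring subunits, Exosc6 showed the largest fall. Exosc6 (ILMN_2685849), related to Mtr3 of yeast, read 8.08, 8.43 and 7.92 on KO arrays and 9.44, 9.25 and 8.96 on WT arrays. It also varied most within groups (SD 0.26 in KO and 0.24 in WT), and the lowest WT array was still above the highest KO array. Its log2 fold change was -1.07 ± 0.18 (SE, limma, adjusted p = 0.00284), a 2.10-fold lower signal, or 47.6% of WT (95% interval 36.0 to 63.0%). With no background correction or in the deposited log2 table Exosc6 was at -0.85 (limma, adjusted p = 0.00114 in each). Exosc2 was at -0.84 under both of these settings. The further Exosc6 probe read 7.85, 7.28 and 7.30 on KO arrays and 8.97, 8.55 and 8.79 on WT arrays, a log2 fold change of -1.30 ± 0.19 (limma over kept probes, adjusted p = 0.00249). Both probes placed KO below WT without overlap, although they ranked the KO arrays differently. The fall of Exosc6 was the 258th lowest fold change of the 10209 tested genes.

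Exosc4 and Exosc5 also fell. Exosc4 (ILMN_2667551), the counterpart of yeast Rrp41, read 10.01, 9.76 and 9.78 on KO arrays and 10.58, 10.54 and 10.51 on WT arrays. KO replicate 1 was again the highest KO array, and the groups did not overlap. Exosc4 had a log2 fold change of -0.70 ± 0.12 (limma, adjusted p = 0.00370), or 61.6% of WT (50.6 to 74.9%). Exosc5 (ILMN_2877280), the counterpart of yeast Rrp46, read 10.15, 10.03 and 10.37 on KO arrays and 10.70, 10.68 and 10.61 on WT arrays. Here KO replicate 3 was the highest KO array. Exosc5 had a log2 fold change of -0.48 ± 0.13 (limma, adjusted p = 0.0205), or 71.6% of WT (58.2 to 88.0%). The call of Exosc5 was lost without KO replicate 2 (-0.41, limma adjusted p = 0.0657), without WT replicate 1 (0.0700), without WT replicate 2 (0.0524) and without WT replicate 3 (0.0519), and its adjusted p was 0.00740 to 0.0700 over 18 alternative settings.

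Exosc8 and Exosc7 did not pass the test. Exosc8 (ILMN_2754369), a ring subunit known as Rrp43 in yeast, read 10.43, 10.73 and 10.64 on KO arrays and 10.87, 10.92 and 11.03 on WT arrays. The groups did not overlap, but the gap between KO replicate 2 and WT replicate 1 was small. Exosc8 had a log2 fold change of -0.34 ± 0.13 (95% interval -0.64 to -0.05; limma, adjusted p = 0.0681). The adjusted p of Exosc8 ranged from 0.0230 to 0.187 over the alternative settings, and it passed under 5 of the 18. Exosc7 (ILMN_2715289), the counterpart of yeast Rrp42, read 11.99, 11.86 and 12.10 on KO arrays and 12.15, 12.13 and 12.03 on WT arrays. It is the only tested member whose groups overlapped, since KO replicate 3 lay above WT replicate 3. Its log2 fold change was -0.12 ± 0.12 (95% interval -0.40 to 0.16; limma, adjusted p = 0.474), or 92.0% of WT (75.8 to 111.7%). The value of Exosc7 was -0.06 without KO replicate 2, and -0.27 and -0.25 with arrays scaled to a common median over all and over kept probes, and none of these passed.

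The probes of Exosc7 disagreed. The further Exosc7 probe (ILMN_1223393), annotated to a cDNA clone and not to a RefSeq mRNA, was dim, with raw signals of 139.0, 156.2 and 137.3 on KO arrays and 164.4, 177.9 and 175.4 on WT arrays. It was detected on 2 KO arrays and 3 WT arrays. It gave a log2 fold change of -0.74 ± 0.16 (limma over kept probes, adjusted p = 0.00914), and with the mean of both probes Exosc7 was at -0.43 (limma, adjusted p = 0.0163, where the range over all alternatives was 0.0163 to 0.784). Which probe follows the mature transcript was not tested. The last ring gene, Exosc9, known as an autoantigen subunit in patients with scleromyositis, was not detected on any array by either of its 2 probes. The brighter of them had raw signals of 104.3, 123.6 and 125.9 on KO arrays and 121.3, 114.1 and 105.1 on WT arrays, which overlap.

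Exosc10, the nuclease that joins the core in the nucleus and nucleolus (Rrp6 in yeast), did not pass the test. Its brightest probe (ILMN_1242419) read 10.24, 10.15 and 9.96 on KO arrays and 10.46, 10.38 and 10.54 on WT arrays, without overlap. The log2 fold change was -0.35 ± 0.13 (95% interval -0.64 to -0.05; limma, adjusted p = 0.0635), or 78.7% of WT (64.3 to 96.3%). A further Exosc10 probe was dim and gave -0.30 ± 0.17 (limma over kept probes, adjusted p = 0.217). Exosc10 passed under 8 of the 18 alternative settings, among them without KO replicate 1 (-0.41, limma adjusted p = 0.0465), and its adjusted p ranged from 0.0280 to 0.184.

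**Figure D1:**
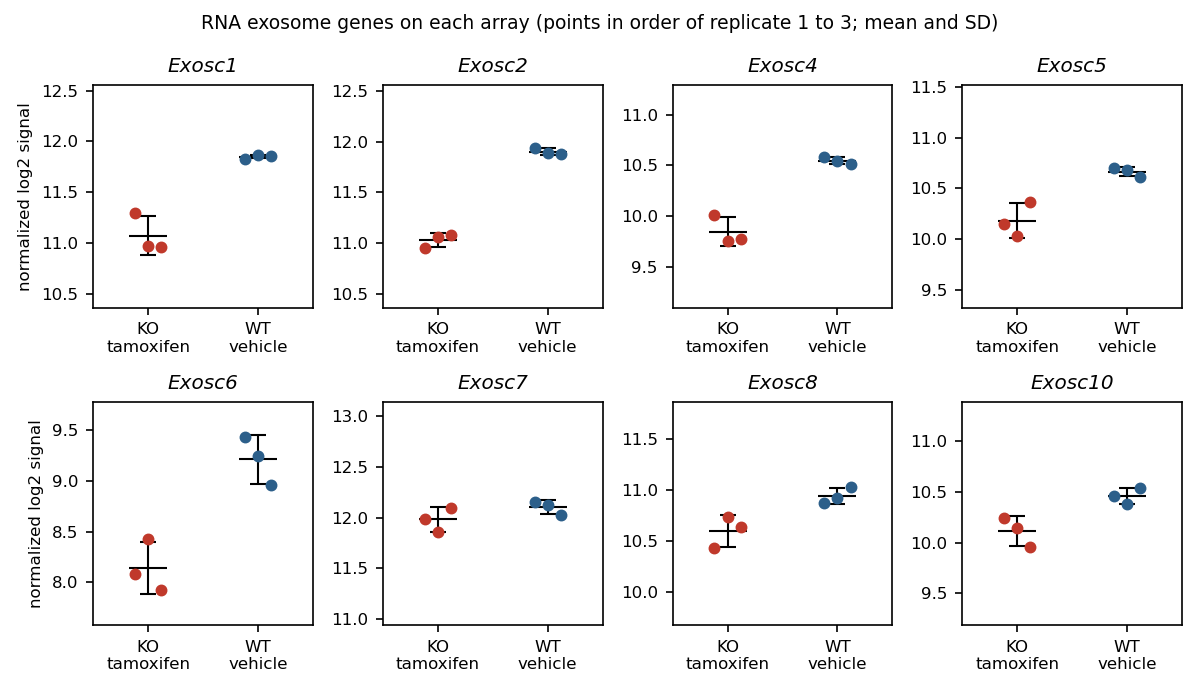
Normalized log2 signal (y axis, with the same span in every panel) of the 8 tested RNA exosome genes in KO tamoxifen (left, red) and WT vehicle (right, blue), with points for replicates 1 to 3 in order and bars for mean and SD. Every KO point lies below every WT point except in Exosc7.

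Taking all kept probes, 8 of 12 member probes were lower at an adjusted p under 0.05 and 0 were higher, against 16.5% lower and 15.7% higher among the 19082 kept probes. The 8 belong to 6 genes, since the further probe of Exosc7 passed. The plot of probe fold changes shows that both Exosc2 probes and both Exosc6 probes passed, while neither Exosc10 probe did.

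**Figure D2:**
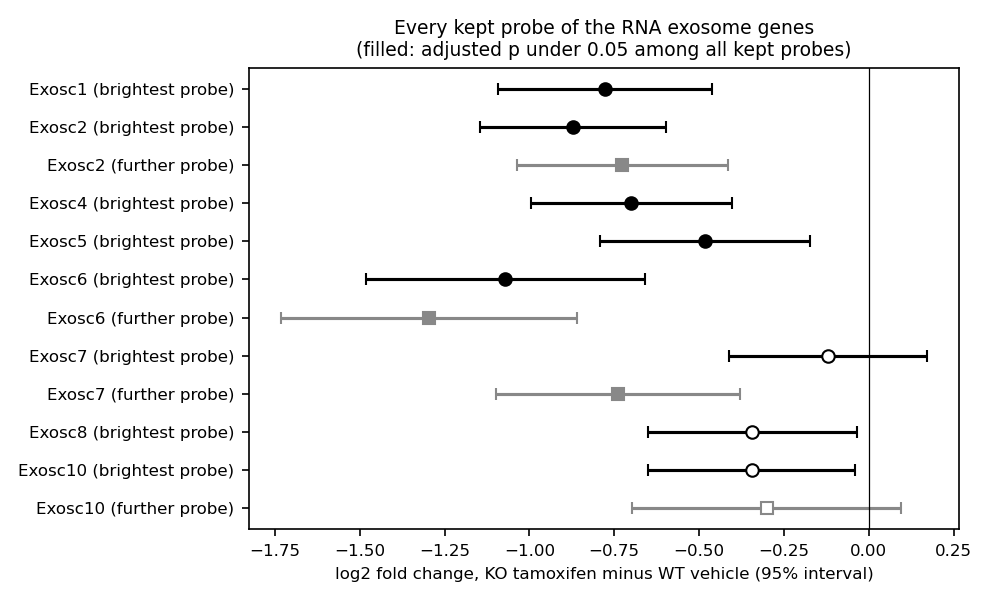
Log2 fold change of KO tamoxifen minus WT vehicle (x axis, with 95% interval) for the 12 kept member probes. Filled markers passed at an adjusted p under 0.05 among all kept probes, circles are the brightest probe of a gene and grey squares the further probes. The probes of Exosc7 are at -0.12 and -0.74.

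The members differed in the size of their change. Set against the mean of the other 7 tested members on the same array, Exosc7 was at 0.52, 0.39 and 0.69 on KO arrays and 0.01, 0.03 and -0.05 on WT arrays. The brightest Exosc7 probe was therefore less reduced than the mean of the others on every KO array, with no overlap between groups. On KO replicate 2, Exosc8 was less reduced than Exosc7 (-0.21 and -0.25 from their WT means). Exosc2 was at -0.44, -0.29 and -0.24 on KO arrays and 0.00170, -0.01 and 0.01 on WT arrays by the same measure, again without overlap in the opposite direction. Exosc6 averaged -0.55 relative to the others, but its KO and WT arrays overlapped by this measure, as WT replicate 3 stood at -0.25 and KO replicate 2 at -0.23. These comparisons were chosen after the values were seen, and the exact permutation test on 3 against 3 arrays cannot go below p = 0.1. The members also ordered the KO arrays differently. KO replicate 1 was lowest of the KO arrays for Exosc2 and Exosc8, replicate 2 for Exosc4, Exosc5 and Exosc7, and replicate 3 for Exosc1, Exosc6 and Exosc10.

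**Figure D3:**
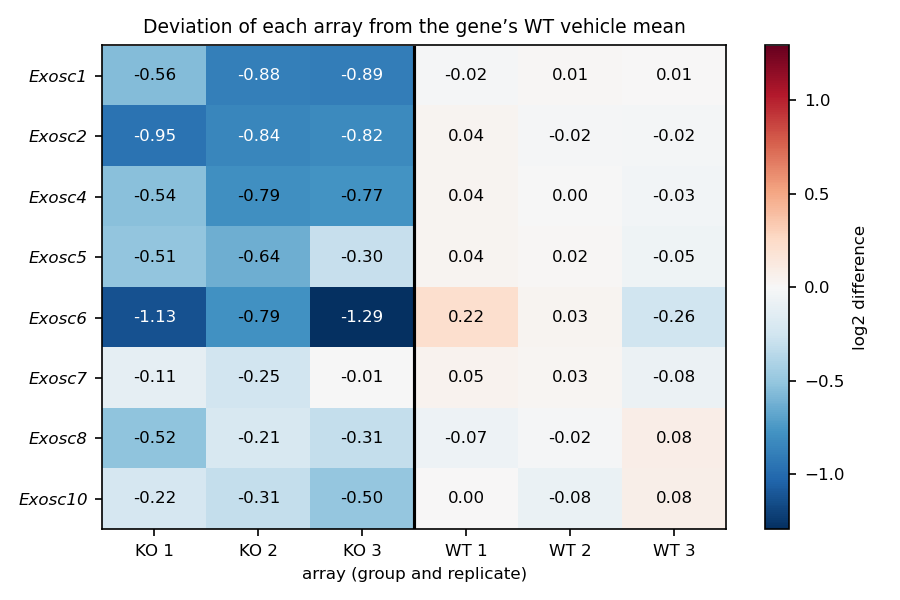
Deviation of each array (columns, KO replicates 1 to 3 left and WT replicates 1 to 3 right) from the WT vehicle mean of the gene (rows), in log2 units by colour and printed value. The KO columns are negative for all 8 genes, from -1.29 for Exosc6 to -0.01 for Exosc7, both in replicate 3.

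Each gene was centred on its own mean over the 6 arrays. Likeness to the mean profile of the 8 members was taken as the root mean square difference. Genes with clone or predicted names were left aside. Of the other genes outside the complex, the nearest were Ltv1, a factor of small ribosomal subunit maturation (0.02 log2 units), Dcakd (0.04) and Zc3hc1 (0.04). Next came Pwp2, a protein of the small subunit processome (0.04), and Ddb2, a DNA damage recognition factor (0.04). Ltv1 read 8.78, 8.76 and 8.70 on KO arrays and 9.40, 9.30 and 9.28 on WT arrays, a log2 fold change of -0.58 ± 0.11. The other 4 were at -0.55 to -0.64. These genes were picked for this profile, so their fold changes follow from the choice and are no test. Of the members themselves, Exosc4 lay nearest to the mean profile (0.09, rank 132 among all tested genes). Exosc6 lay farthest from it (0.31, rank 4031).

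The genes of proteins that work with the exosome and of other exoribonucleases were counted from a list of 25, of which 21 were tested. Both kinds are called partner genes here. Of the partner genes, 9 fell and 0 rose, and 12 did not pass, against 17.1% lower among all tested genes. The other exoribonucleases, of which 5 were tested, gave 4 of the 9. The median log2 fold change of the 21 was -0.23. None of the partner genes with a positive value reached an unadjusted p under 0.05. The catalytic subunit gene Dis3, whose protein sits at the exit of the barrel, read 6.13, 6.25 and 6.24 on KO arrays and 6.91, 6.83 and 7.04 on WT arrays. The Dis3 groups did not overlap, and its log2 fold change was -0.72 ± 0.12 (SE, limma, adjusted p = 0.00295). This probe was dim, and with no background correction or in the deposited log2 table Dis3 was at -0.35 (limma, adjusted p = 0.0104 in each). Its cytoplasmic paralogue Dis3l was at 0.11 ± 0.12 (95% interval -0.17 to 0.39) and Dis3l2, a nuclease that acts without the core, at -0.23 ± 0.11 (-0.48 to 0.03), and neither passed. Both tested nuclear cofactors fell. Mphosph6, which binds pre-ribosomal RNA, was at -0.66 ± 0.13 (limma, adjusted p = 0.00569), and Mtrex, the helicase that feeds RNA into the nuclear exosome, at -0.46 ± 0.15 (adjusted p = 0.0409). Mtrex lost its call without any 1 array except KO replicate 1 (limma, adjusted p up to 0.126 without KO replicate 3) and with no filter on dim probes (0.0569).

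The adaptor complexes that hand nuclear RNA to Mtrex had 1 called gene, against 17.1% lower among all tested genes. Of 2 tested genes of the TRAMP polyadenylation complex, 0 passed by limma, also at an unadjusted p under 0.05, and Zcchc7, its zinc-finger subunit, was at -0.12 ± 0.11 (95% interval -0.38 to 0.13; limma, adjusted p = 0.424). Of 5 tested genes of the nuclear exosome targeting (NEXT) and poly(A) tail (PAXT) pathways, Pabpn1, a nuclear poly(A)-binding protein, alone fell, at -0.39 ± 0.13 (limma, adjusted p = 0.0413). Its call was lost without any 1 array except KO replicate 1 (limma, adjusted p up to 0.135 without KO replicate 3) and with a replicate block (0.0519). Among 4 genes of the cytoplasmic Ski complex and its adaptor, the scaffold gene Ttc37 fell by 0.78 on the log2 scale (SE 0.19, limma, adjusted p = 0.0135), and the helicase gene Skiv2l was at 0.11 ± 0.14 (95% interval -0.21 to 0.44). With no background correction or in the deposited log2 table Ttc37 was at -0.37 (limma, adjusted p = 0.0168 in each). A further Ttc37 probe was at -0.75 (limma over kept probes, adjusted p = 0.00870).

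Of 5 other exoribonuclease genes tested, 4 fell in KO tamoxifen, against 17.1% lower among all tested genes, and Xrn1, the cytoplasmic 5′ to 3′ nuclease, did not pass, at -0.29 ± 0.17 (95% interval -0.67 to 0.09). The value of Xrn1 was -0.11 without KO replicate 3 and -0.12 with no background correction. Xrn2, its nuclear counterpart in ribosomal RNA processing and transcription termination, read 7.01, 7.21 and 6.83 on KO arrays and 7.88, 7.90 and 8.01 on WT arrays. The Xrn2 groups lay apart without overlap, at a log2 fold change of -0.92 ± 0.14 (SE, limma, adjusted p = 0.00194), although a further probe, detected on all arrays, was at -0.34 and did not pass. The remaining Xrn2 probe was not well above background on any KO array and was detected on 3 WT arrays, with mean levels of 4.98 on KO arrays and 5.58 on WT arrays. It was at least 1.22-fold lower, a bound against the lowest detected signal of each KO array. This probe was kept through the WT arrays alone, so no test of it is given. Parn, a poly(A)-specific ribonuclease, was at -0.83 ± 0.19 (adjusted p = 0.00943), Eri1, which trims the 3′ end of ribosomal RNA, at -0.77 ± 0.22 (adjusted p = 0.0232) and Isg20l2, a nucleolar exonuclease, at -0.61 ± 0.13 (adjusted p = 0.00714), all by limma. Further Parn probes were at -0.23 and -0.40 and did not pass, and the mean of all Parn probes gave -0.49 (limma, adjusted p = 0.0265). With no background correction Xrn2 was at -0.58 and Eri1 at -0.41, and both still passed (limma, adjusted p = 0.00132 and 0.0236). Eri1 lost its call without KO replicate 2, WT replicate 1 or WT replicate 3 (limma, adjusted p up to 0.0836) and with no filter on dim probes (0.0539).

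**Figure D4:**
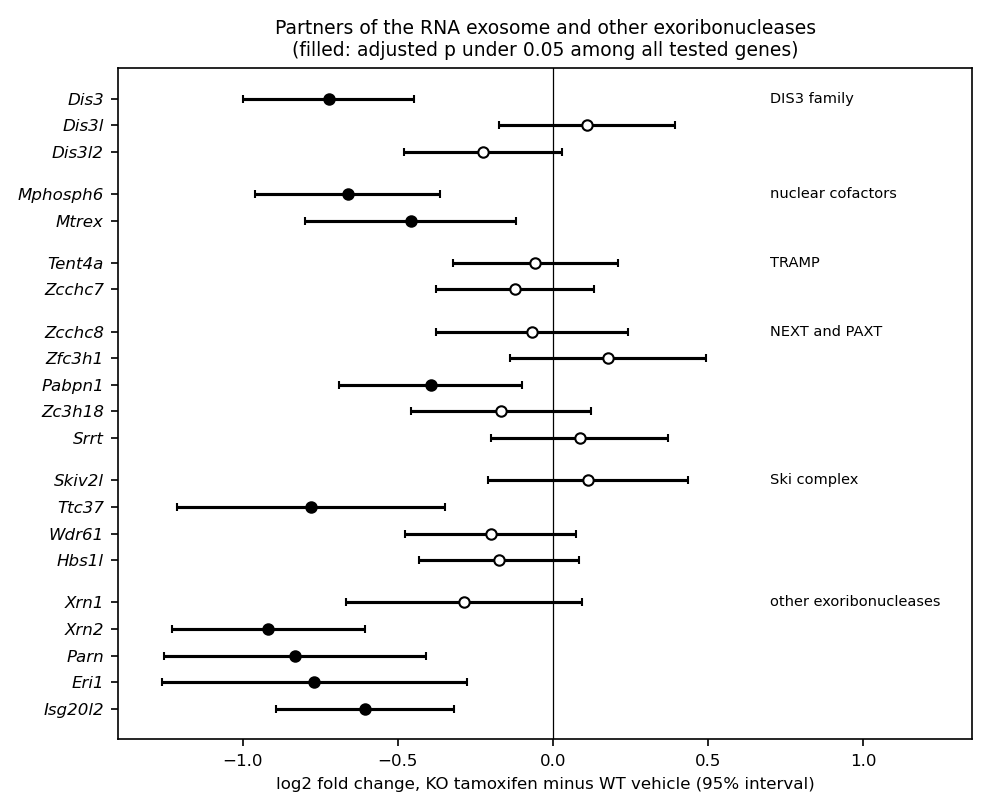
Log2 fold change of KO tamoxifen minus WT vehicle (x axis, with 95% interval) of the 21 tested partner genes and other exoribonucleases, by group. Filled circles mark the 9 genes that fell, of which 4 are exoribonucleases outside the complex, and no gene rose.

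For comparison, 15 of 25 tested genes of large ribosomal subunit processing fell and 0 rose, with a median log2 fold change of -0.49, against 17.1% lower and 19.7% higher among all tested genes. KO arrays lay below WT arrays without overlap for 21 of the 25, against 24.4% of all tested genes. Rrs1 at -1.44 ± 0.19 (limma, adjusted p = 0.00141), Rrp15 at -1.15 ± 0.20 (0.00356) and Ppan at -1.07 ± 0.15 (0.00173), assembly factors of the large subunit, had the lowest fitted values among them. Rrs1 was dim and was detected on 2 KO arrays and 3 WT arrays, so its value rests partly on a signal not above background. Tex10, Wdr18 and Mak16, not called here, had further probes that passed as lower (limma over kept probes, adjusted p = 0.0201, 0.0192 and 0.0102). Of the called genes, Brix1, Mdn1, Las1l and Rpf1 had further probes that did not pass, at 0.03 for Brix1 and -0.13 for Mdn1. The median of the 8 exosome genes was -0.59. The difference between the lists was not tested.

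**Figure D5:**
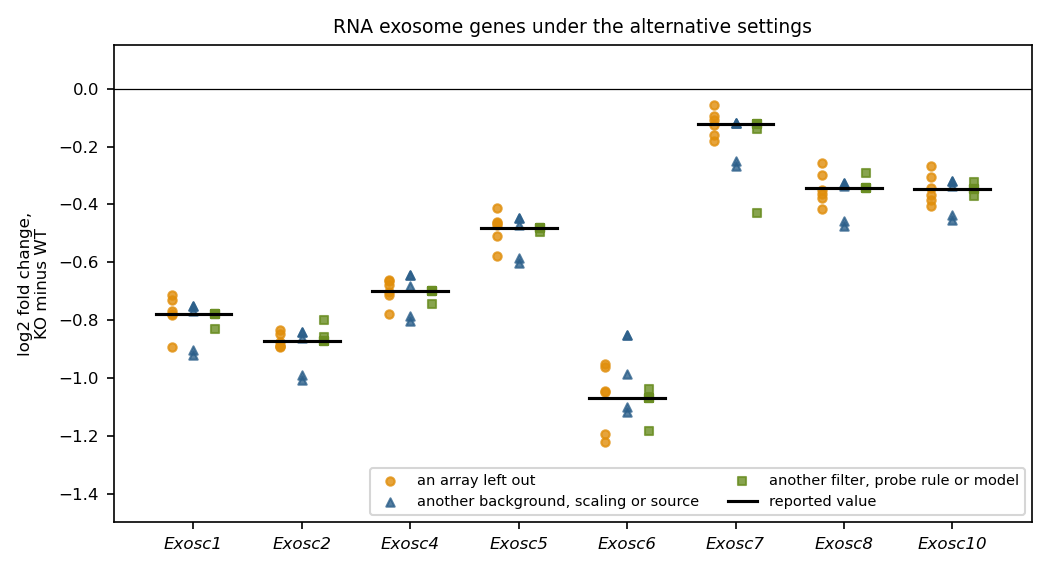
Log2 fold change of KO tamoxifen minus WT vehicle (y axis) of the 8 tested members under the 18 alternative settings (markers by kind) and as reported (black lines). All values are negative, and Exosc7 moves to -0.43 with the mean of its probes.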

How the data were processed

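Each of the 45281 probes has, per the file headers, a raw signal intensity and a detection p-value on each of the 6 arrays. The deposited intensities are neither background-subtracted nor normalized between arrays, since the lowest signals are 89.7 to 95.1 and the medians differ. The deposited detection p-values are used as the authors gave them. The deposited log2 table of the same arrays matches quantile-normalized log2 raw signals to within 5e-05, and its medians are 7.01. No scanner software is named in these sources. The number of sample columns left aside was 0.

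Intensities were normalized with neqc in limma 3.58.1 (R 4.3.3), which corrects the background with negative controls inferred from the detection p-values, adds 16, quantile normalizes and takes log2. Fold changes of dim probes depend on this correction. Probes detected at p under 0.05 on at least 3 arrays were kept (19082). Platform symbols (1 for 34885 probes, several for 18, none for 10378) were updated through RefSeq identifiers. For each of 10209 genes the probe of highest mean signal was used. lmFit and eBayes tested KO tamoxifen minus WT vehicle, 2-sided, with Benjamini-Hochberg adjustment over all genes, and a second fit covered all kept probes. The fit was tested on simulated data. Precision is limited by the number of arrays.

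The text names all members, Myc, and the called partner genes or else the gene with the smallest p in its group. It also names 3 genes of the large subunit list and the 5 nearest profiles without a clone or predicted name. Dis3l, Dis3l2, Skiv2l, Xrn1, the large subunit genes whose probes differed and the markers were named after their values were seen. The members and lists were chosen with earlier results of these data known. Alternatives were other background corrections, scalings, filters and probe rules, the deposited log2 table, a replicate block, other variance models and weights, a stricter threshold and each array left out. The setting with no background correction is quantile-normalized log2 raw signal. It therefore nearly repeats the deposited log2 table, and both are counted among the alternatives. Figures were drawn with matplotlib 3.10.9.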

Additional observations from a re-analysis of the deposited data

How the results depend on the processing

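Over 18 alternatives, between 4 and 7 RNA exosome genes fell and 0 rose. The calls of Exosc1, Exosc2, Exosc4 and Exosc6 held under each of the 18, while that of Exosc5 was lost in 5. The median log2 fold change of the RNA exosome genes was -0.54 to -0.62 with single arrays left out, -0.70 with arrays scaled to 1 common median over all probes, -0.69 with the scaling over the kept probes (a setting chosen after seeing the data) and -0.44 with no filter on dim probes, which adds Exosc3 and Exosc9. Signal over background limits what can be said of these 2 genes. At an adjusted p under 0.01, the counts over all tested genes were 864 lower and 1023 higher, and 5 partner genes fell. With single arrays left out, 1137 to 1829 of all tested genes were lower, the fewest without WT replicate 1, with 1140 without WT replicate 3. Among partner genes that did not pass, the direction turned for Srrt (-0.0457 and -0.0295 with the scalings over all and over kept probes), Skiv2l (-0.0100 with the scaling over all probes) and Zcchc8 (0.0357 without WT replicate 3, in a range of -0.129 to 0.0357 with single arrays left out). The cause was not tested. The labels join same-numbered samples by the number alone. Their deviations from the group means correlated at 0.17, 0.12 and -0.08 across genes, and those of differently numbered samples at -0.26 to 0.21. With so few samples per group, these values cannot decide whether the samples were paired. With the replicate number as a block, 5 RNA exosome genes fell (median -0.59), as did 8 partner genes, 14 large subunit genes, 8 member probes and 1697 of all tested genes, and 2016 of all tested genes rose. A slide block was not run, because the columns used here name no slide.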
